A study of Homo sapiens with 6 samples.

Results

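The amino acid transporters of the solute carrier (SLC) families 1, 3, 6, 7, 36, 38 and 43 were followed in A549 and A549/DDP cells. The members were the protein-coding genes of GENCODE 44 whose symbols belong to these families, and the gene IDs of the deposited tables were looked up there. Of 59 such genes, 50 had rows in the tables, with 160 transcripts out of 81818 transcripts of 30061 gene IDs. The other 9 (SLC1A5, SLC3A1, SLC6A2, SLC6A19, SLC7A2, SLC7A3, SLC7A4, SLC7A11 and SLC38A4) are not analysed here. Because members were taken by family name, a few carry other substrates, such as the monoamine carriers of SLC6, the creatine carrier SLC6A8 and the nucleobase carrier SLC43A3.

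A549 is a widely used human lung adenocarcinoma line, from which the cisplatin-resistant A549/DDP cells were derived. RNA of each line was sequenced in 3 strand-specific libraries after rRNA had been removed, from cells at passages 6 to 8. All cells grew in RPMI-1640 medium with fetal calf serum, streptomycin and penicillin, and the medium of the A549/DDP cells also held cisplatin (DDP) at 1 µg/mL, so an effect of the drug present in the medium cannot be told apart from one of resistance. Sensitive and resistant cells are represented by 1 line each, and the labels give library numbers but not whether these are separate cultures, so the p-values measure only the spread between libraries, which may be technical.

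Plasma membrane carriers set which amino acids a cell can take up, give out or exchange. SLC3A2 (CD98) and SLC3A1 are heavy chains, single-pass proteins that bring a light chain of family SLC7 to the membrane, and the light chain does the transport. SLC7A5 takes up large neutral amino acids, SLC7A6 and SLC7A7 exchange cationic for neutral amino acids, and SLC7A11 exchanges cystine for glutamate, which feeds the synthesis of glutathione. Members of SLC38 carry glutamine and other small neutral amino acids with sodium, and SLC1 and SLC6 hold sodium-driven carriers of glutamate, glycine and taurine.

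Values were deposited as FPKM, in which the fragments of a transcript are scaled by its length and by the mapped fragments of the library. Most of the member transcripts were not coding ones. By gene ID and genomic span, 150 of the 160 matched a named transcript of GENCODE 44. Of these, 81 were retained introns, 67 came from coding genes but had no defined coding sequence, and only 2, both of SLC1A3, had the span of a coding transcript. The values of a member therefore say little about its full mRNA. A gene sum is the FPKM of all listed transcripts of a gene ID. The number of reads behind a value is unknown. Library totals were 58042 to 62589 FPKM in A549 and 65142 to 68665 FPKM in A549/DDP. In bulk libraries, fewer cells with a transcript and less of it in each cell cannot be told apart.

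A transcript or gene sum that reached 0.5 FPKM in 3 or more of the 6 libraries was tested with limma on log2(FPKM + 1). A call needed an adjusted p (Benjamini-Hochberg, over every feature tested) under 0.01 and a log2 fold change above 1 or below -1. On this scale the change of low values is understated. Log2 fold changes are those of A549/DDP over A549, so that positive values stand for higher values in A549/DDP.

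Among the transporters, only SLC7A7 passed this test in its gene sum, and it was higher in A549/DDP. Of the 50 listed genes, 18 gene sums could be tested, 1 was called higher and 0 were called lower by limma, and 6 had an unadjusted p under 0.05 (27.1% of all gene sums did). Of all 10591 gene sums tested, 1.39% were called higher and 0.963% were called lower. Under a median-ratio scaling the calls over all gene sums went from 147 higher and 102 lower to 94 higher and 118 lower. The A549/DDP libraries lay entirely above the A549 libraries in 2 members (SLC7A7 and SLC38A6), as in 21.8% of all gene sums. They lay entirely below in 4 members (SLC3A2, SLC1A3, SLC38A2 and SLC6A9), as in 10.4% of all gene sums. Those 6 were 33.3% of the members tested, against 32.2% of all gene sums, so separation of the lines was about as frequent as among all gene sums. Among the 6, SLC7A7, SLC1A3 and SLC6A9 passed the filter through the line in which they were high. The median log2 fold change was -0.03 for the 18 members and 0.17 for all gene sums.

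Among transcripts, 43 of the 160 could be tested, and again 1 was called higher (SLC7A7-209) and 0 were called lower by limma, while 12 had an unadjusted p under 0.05 (21.7% of all transcripts did). Over all 20663 transcripts tested, 0.353% were called higher and 0.198% lower. The lines did not overlap in 14 member transcripts, 6 of them higher and 8 lower in A549/DDP, which is 32.6% against 27.9% of all transcripts (18.9% higher and 8.91% lower). The 6 higher ones belonged to SLC7A7, SLC38A6 and SLC6A6, and the 8 lower ones to SLC38A2, SLC3A2 and SLC38A10. Of the higher ones, SLC7A7-209, SLC7A7-214, SLC38A6-214 and SLC38A6-218 passed the filter through the line in which they were high. So did SLC38A2-204 and the largest unnamed SLC3A2 transcript among the lower ones. The median was -0.07 for member transcripts and 0.14 for all transcripts.

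**Figure D1:**
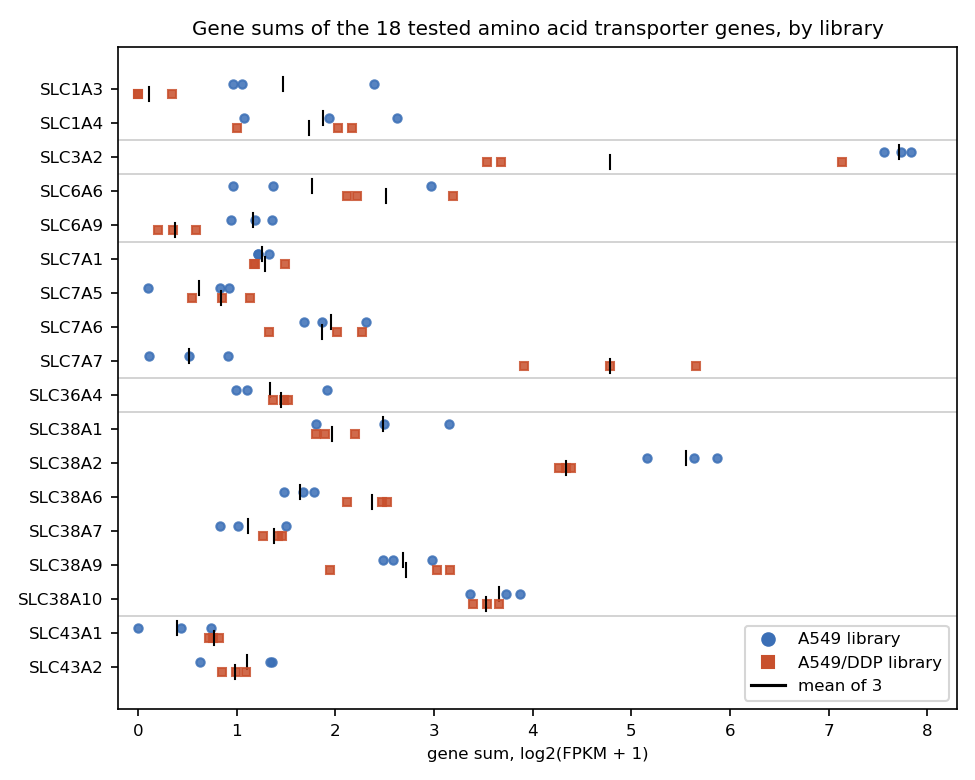
Gene sums of the 18 tested transporter genes in each of the 6 libraries, as log2(FPKM + 1) on the horizontal axis, with genes grouped by family. Circles are A549 libraries, squares are A549/DDP libraries and black ticks are the means of 3. SLC7A7 has all 3 A549/DDP libraries far to the right, whereas in SLC3A2 2 of the A549/DDP libraries lie far to the left and the third lies near the A549 libraries.

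**Figure D2:**
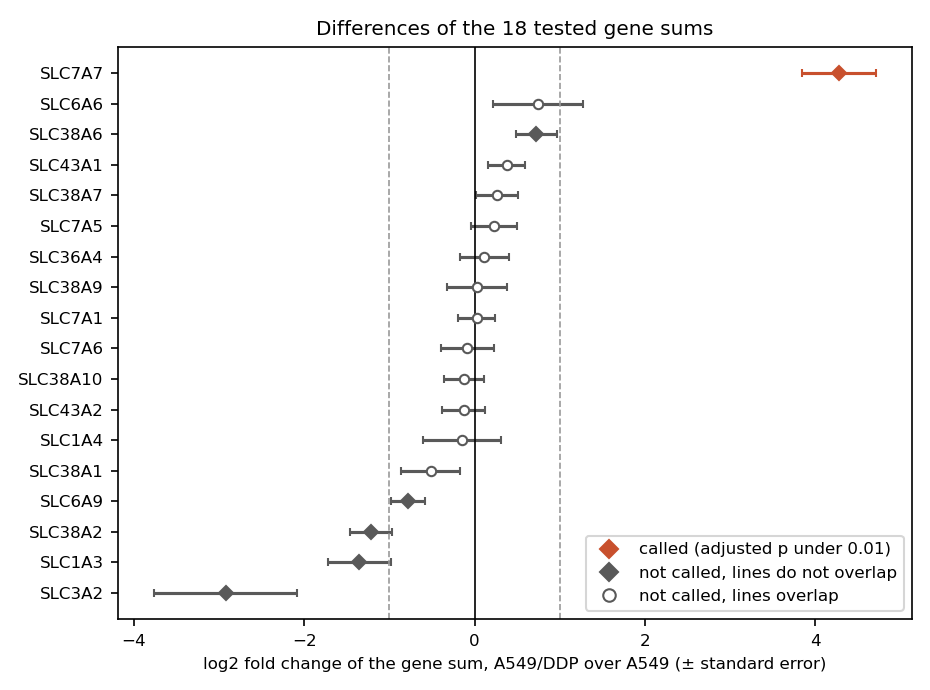
Log2 fold changes of the 18 gene sums, A549/DDP over A549, with bars of 1 standard error from limma and dashed lines at a log2 fold change of -1 and 1. SLC7A7, at 4.27, was called; SLC3A2, at -2.92, has the widest error bar.

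SLC7A7 encodes the light chain that exports arginine and lysine in exchange for neutral amino acids and sodium, and it is typical of kidney and intestinal epithelium and of macrophages. Its loss causes lysinuric protein intolerance. Its gene sum was 0.431, 0.0796 and 0.877 FPKM in the A549 libraries and 26.6, 49.6 and 14.1 FPKM in the A549/DDP libraries. The lowest A549/DDP library was well above the highest A549 library. The means were 0.463 ± 0.400 and 30.1 ± 18.0 FPKM (SD, n = 3 libraries each), and the log2 fold change of 4.27 (SE 0.44) had an adjusted p of 0.00140 by limma. Only 1 A549 library reached 0.5 FPKM, so SLC7A7 entered the test through the line in which it was high. This call held when any single library was left out (log2 fold change 3.84 to 4.71, adjusted p 0.00587 to 0.00872 by limma), but it ended without the filter on low values (adjusted p 0.0115 by limma) and with a pseudocount of 0.01 (adjusted p 0.0121 by limma).

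Nearly all of this sum came from the transcript SLC7A7-209, at chr14:22773316-22780475 on the minus strand (GRCh38). Its share of the sum in the A549/DDP libraries was 93.4%, 96.6% and 83.6%. It was listed at 0 in each A549 library and at 24.9, 47.9 and 11.8 FPKM in the A549/DDP libraries, so its fitted log2 fold change of 4.66 (SE 0.47, adjusted p 0.00510 by limma) depends on the pseudocount. It too entered the test only through the A549/DDP libraries, and without the filter its adjusted p was 0.0292 by limma. When any single library was left out this call ended, with adjusted p of 0.0124 to 0.0291 by limma and log2 fold changes of 4.18 to 5.15. With 5 libraries, however, 0 to 2 of all transcripts were called higher, against 73 with 6, so few calls of any transcript were made in those comparisons.

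The annotation gives SLC7A7-209 9 exons and 1501 bases, without a defined coding sequence. It begins 34960 bases after the start of the coding transcript SLC7A7-222, which has 10 exons. It starts 424 bases before the start of exon 3 of SLC7A7-222, and from that exon on 7 exons are identical. It covers 1034 of the 1533 coding bases of SLC7A7-222. No other annotated gene overlaps its span on either strand. The sequences at the first shared splice junction show how the transcripts differ, with the end of the exon before the junction in capitals and the start of the shared exon in lower case, read along the gene on the minus strand of chromosome 14.
SLC7A7-209: GGATGTATTTTTTATgtctcttaaccttca
SLC7A7-222: CTGCTGCCTGCATTTgtctcttaaccttca
The capitals are the last bases of exon 1 of SLC7A7-209 (chr14:22780306-22780320) and of exon 2 of SLC7A7-222 (chr14:22812900-22812914), while the shared bases are chr14:22780037-22780051. The sequences come from the GRCh38 genome. The tables give a span and no exons, so the junction itself was not observed here.

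Other SLC7A7 transcripts were low. SLC7A7-214, a retained intron in the same end of the gene, was at 0.431, 0 and 0.877 FPKM in A549 and at 1.58, 1.28 and 2.13 FPKM in A549/DDP. All A549/DDP libraries were above all A549 libraries, and its log2 fold change of 0.92 (SE 0.28) was not called (adjusted p 0.113 by limma). SLC7A7-214, too, entered the test through the line in which it was high. SLC7A7-207, which begins upstream of SLC7A7-222, had no value above 0 in A549 and stood at 0.184, 0.391 and 0.174 FPKM in A549/DDP, too low to be tested.

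The genes around SLC7A7 did not show a call. Within 250 kb of it, a window chosen after its value was seen, 12 other gene sums were tested, 0 were called by limma, 1 had an unadjusted p under 0.05, and 2 had lines that did not overlap. Over all gene sums, 27.1% had such a p and 32.2% had lines that did not overlap. The log2 fold changes of the 12 ran from -1.24 for DAD1, a subunit of the oligosaccharyltransferase, to 0.52 for ACIN1.

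**Figure D3:**
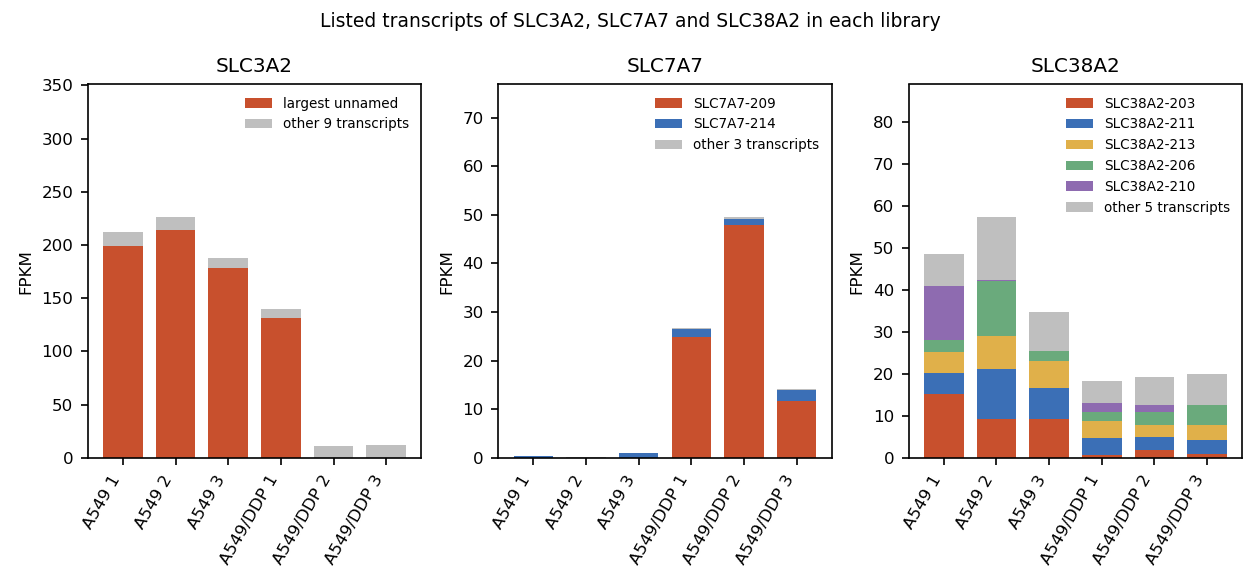
FPKM of the listed transcripts of SLC3A2, SLC7A7 and SLC38A2, stacked for each of the 6 libraries, with named transcripts in colour and the remaining ones in grey (each panel has its own axis, from 0). The largest unnamed transcript of SLC3A2 fills most of the bar in 4 libraries and is at 0 in A549/DDP replicates 2 and 3, while SLC7A7-209 is at 0 in the A549 libraries.

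SLC3A2, the heavy chain that SLC7A5, SLC7A6, SLC7A7, SLC7A8, SLC7A10 and SLC7A11 need to reach the membrane, had the highest values of all members. Its gene sum was 212, 226 and 187 FPKM in A549 and 139.8, 10.6 and 11.8 FPKM in A549/DDP. The A549/DDP libraries were all lower, but replicate 1 was far above the other two. The means were 208.6 ± 19.7 and 54.1 ± 74.3 FPKM (SD, n = 3 each), and the log2 fold change of -2.92 (SE 0.84) was not called (adjusted p 0.0632 by limma). Replicates of A549/DDP decided its size. Without A549/DDP replicate 1 it was -4.10 and called (adjusted p 0.00184 by limma), while it was -2.30 without replicate 2 (adjusted p 0.177 by limma) and -2.37 without replicate 3 (adjusted p 0.197 by limma).

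A single unnamed transcript, at chr11:62881668-62885314 on the plus strand (GRCh38), made up this difference. It was at 199, 214 and 179 FPKM in A549 and at 131.8, 0 and 0 FPKM in A549/DDP. It held 93.8% to 95.3% of the sum in A549 and 94.3% in A549/DDP replicate 1. Its log2 fold change of -5.28 (SE 1.71) was not called (adjusted p 0.129 by limma), whereas without A549/DDP replicate 1 it was -7.63 with an adjusted p of 0.00164 by limma. Without replicate 2 or replicate 3 it was -4.10 (adjusted p 0.294 and 0.322 by limma). Its span matched no GENCODE 44 transcript, but it ends at the same base as SLC3A2-209, a transcript without a defined coding sequence whose start lies 31 bases further in.

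The other 9 SLC3A2 transcripts together had much the same range in both lines, at 13.1, 12.4 and 8.84 FPKM in A549 and 8.02, 10.6 and 11.8 FPKM in A549/DDP. The ranges overlapped, and the log2 fold change without the large transcript was -0.16 (adjusted p 0.735 by limma, a sum chosen after seeing the data). Among these, SLC3A2-223, a retained intron, had all A549/DDP libraries below all A549 libraries, at 1.98, 1.98 and 1.73 against 0.989, 1.50 and 1.28 FPKM. Its log2 fold change of -0.36 was not called (adjusted p 0.383 by limma).

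The listed transcripts of light chains other than SLC7A7 were low in both lines and none was called. None of these transcripts is a coding one, so their values say little about the full mRNAs. SLC7A5 was listed by 1 retained intron, SLC7A5-202, at 0.893, 0.0708 and 0.785 FPKM in A549 and 0.804, 0.458 and 1.20 FPKM in A549/DDP. The ranges overlapped, and its log2 fold change was 0.23 (SE 0.27, adjusted p 0.638 by limma). For SLC7A6, the closest relative of SLC7A7 in function, the gene sum was 2.21, 3.95 and 2.64 FPKM in A549 and 3.81, 1.50 and 3.03 FPKM in A549/DDP, again overlapping (log2 fold change -0.08, SE 0.31). SLC7A6OS lies antisense to its transcripts, and whether strand was used in the quantification is not stated.

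SLC7A8, which carries neutral amino acids, SLC7A10, a carrier of small neutral amino acids such as serine, and SLC7A13, a partner of SLC3A1, were listed at 0 in all 6 libraries. SLC7A9, the other partner of SLC3A1 and the light chain of renal cystine uptake, was at 0.424 FPKM in A549/DDP replicate 2 and at 0 elsewhere. SLC7A1, which takes up arginine and lysine without a heavy chain, was at 1.33, 1.52 and 1.33 FPKM in A549 and 1.82, 1.27 and 1.25 FPKM in A549/DDP, with a log2 fold change of 0.03 (SE 0.22). As a family, the listed SLC7 transcripts summed to 4.87 to 5.63 FPKM in A549 and 19.6 to 53.2 FPKM in A549/DDP, a difference made up by SLC7A7.

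SLC38A2, a carrier of glutamine and other small neutral amino acids that cells are known to induce when amino acids run short, was lower in all A549/DDP libraries. Its gene sum was 48.6, 57.4 and 34.8 FPKM in A549 and 18.3, 19.3 and 20.0 FPKM in A549/DDP. The lines did not overlap, and the A549/DDP libraries lay close together. With means of 46.9 ± 11.4 and 19.2 ± 0.864 FPKM (SD, n = 3 each), the log2 fold change of -1.22 (SE 0.25) was not called (adjusted p 0.0219 by limma). Under the median-ratio scaling it was -1.46 and called (adjusted p 0.00754 by limma), whereas leaving out single libraries gave adjusted p of 0.0224 to 0.0799 by limma, none of them a call.

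All 10 listed SLC38A2 transcripts were tested, and in 5 of them the A549/DDP libraries lay entirely below the A549 libraries (8.91% of all transcripts did). Many of these transcripts overlap in span, so the 5 are not separate observations. SLC38A2-203, at chr12:46364642-46371433 on the minus strand, differed most, at 15.2, 9.16 and 9.12 FPKM in A549 and 0.693, 1.88 and 0.973 FPKM in A549/DDP. Its log2 fold change of -2.48 (SE 0.33) was not called (adjusted p 0.0116 by limma), but it was among features of 2 FPKM or more (adjusted p 0.00685 by limma). SLC38A2-203 passed that filter of 2 FPKM only through the A549 libraries, in which it was high. Its share of the gene sum was 16.0% to 31.2% in A549 and 3.79% to 9.76% in A549/DDP. Without it, the remaining transcripts still summed to 33.5, 48.2 and 25.6 FPKM in A549 and 17.6, 17.4 and 19.0 FPKM in A549/DDP.

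The other 4 transcripts with separate lines were SLC38A2-204, SLC38A2-205, SLC38A2-211 and SLC38A2-213, with log2 fold changes of -1.07, -0.60, -1.01 and -0.69, none of them called. SLC38A2-213, the retained intron that includes the annotated start of the gene, was at 4.88, 7.81 and 6.27 FPKM in A549 and 3.87, 2.94 and 3.64 FPKM in A549/DDP. In contrast, SLC38A2-210 was spread widely within a line, at 12.9, 0.284 and 0.0280 FPKM in A549 and 2.11, 1.75 and 0.0652 FPKM in A549/DDP, with overlapping ranges. The gene SLC38A2-AS1 lies antisense to SLC38A2-210 and SLC38A2-213, so their reads may not be separate from its own.

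The SLC38A2 transcripts differ in where they begin. SLC38A2-203 starts 1340 bases after the start of the coding SLC38A2-201, within its intron 1, and SLC38A2-210 starts 327 bases after it. The bases before the shared exon 2 show these alternatives, with the bases before exon 2 in capitals and the start of exon 2 (chr12:46371365-46371379) in lower case, along the gene on the minus strand.
SLC38A2-201: ATAGAGACCACCGAGgccgactcgcgggcc
SLC38A2-210: GCGCCCGCGACGTGGgccgactcgcgggcc
SLC38A2-203: CCTCTACTTTCGCAGgccgactcgcgggcc
In SLC38A2-201 and SLC38A2-210 the capitals end exon 1 (chr12:46372509-46372523 and chr12:46372321-46372335). In SLC38A2-203 they are the end of intron 1 of SLC38A2-201 (chr12:46371380-46371394), of which its first exon keeps 54 bases.

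**Figure D4:**
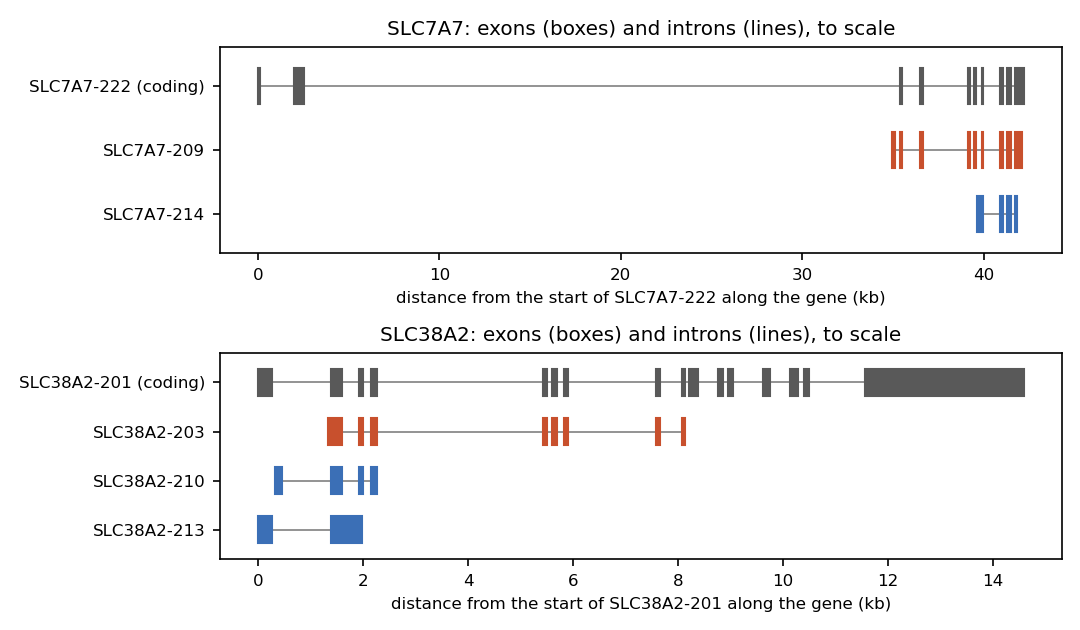
Exons (boxes) and introns (lines) of SLC7A7 and SLC38A2 transcripts in GENCODE 44, to scale, against the distance from the start of the coding transcript in kb (grey, coding transcript, red, the transcript of the largest difference, blue, others). SLC7A7-209 begins late in the gene and shares 7 exons with SLC7A7-222, and SLC38A2-203 begins within the first intron of SLC38A2-201.

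The first intron of SLC38A2 is known to hold an amino acid response element, a site bound by ATF4 and C/EBP factors when amino acids run short. The motif TGATGCAAT was searched on both strands. It had 1 match in the 1129 bases of intron 1 of SLC38A2-201, at chr12:46372053-46372061, 712 bases after the gene start. Along the gene, the window around it (chr12:46372043-46372071) reads as follows, with the match, on the opposite strand, in capitals.
SLC38A2 intron 1: gacgatcgatATTGCATCAgttttctttc
Of 61 promoters of 41 listed members (RefSeq, GRCh38.p14, 250 bases before to 50 after a start), 0 held the motif, against 83 of 35116 promoters of all genes (0.236%). The first exon of SLC7A7-209 with the 250 bases before it also had 0 matches. With a share of 0.236% over all promoters, 0 matches in 61 promoters cannot show a contrast. The promoter window also ends before the site in intron 1 of SLC38A2. A match is a description of the sequence only.

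Within the rest of SLC38, SLC38A6, a carrier that is little studied, was the other transporter with separate lines and higher values in A549/DDP. Its gene sum was 1.79, 2.44 and 2.19 FPKM in A549 and 3.34, 4.74 and 4.55 FPKM in A549/DDP. The log2 fold change was 0.73 (SE 0.24) and was not called (adjusted p 0.0918 by limma). Of its transcripts, SLC38A6-218 and SLC38A6-214, which begin near the start of the gene, had separate lines (log2 fold changes 0.79 and 0.82, not called), whereas SLC38A6-217 overlapped (-0.33). SLC38A6-214 entered the test only through the A549/DDP libraries. SLC38A6-218, at 0.153, 0.709 and 0.490 FPKM in A549, also entered it through the line in which it was high.

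No difference beyond the spread of the libraries was seen for the lysosomal members. SLC38A9, which senses arginine in the lysosome for mTORC1, was at 5.02, 4.57 and 6.91 FPKM in A549 and 7.18, 2.85 and 7.97 FPKM in A549/DDP (log2 fold change 0.03, SE 0.35). SLC38A7, which releases glutamine from the lysosome, had a log2 fold change of 0.27 (SE 0.25). Both overlapped between the lines.

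SLC38A10, a carrier of glutamine and related amino acids, had overlapping sums, at 12.3, 13.7 and 9.29 FPKM in A549 and 9.50, 10.6 and 11.6 FPKM in A549/DDP (log2 fold change -0.13, SE 0.24). Its transcript SLC38A10-207, a retained intron, was lower in all A549/DDP libraries, at 2.31, 2.44 and 1.96 against 1.38, 1.15 and 0.978 FPKM. This difference (log2 fold change -0.58) was not called (adjusted p 0.186 by limma). SLC38A1, the neighbour of SLC38A2 on chromosome 12 and a carrier of glutamine, had a log2 fold change of -0.52 (SE 0.35) with overlapping lines.

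SLC38A5, another glutamine carrier, was too low to be tested, at 0.192, 0.662 and 1.31 FPKM in A549 and 0.0794, 0 and 0 FPKM in A549/DDP. These lines did not overlap either, and 1.31 FPKM was the highest value of any member that was not tested. The SLC38 transcripts summed to 60.1 to 87.4 FPKM in A549 and 41.6 to 48.6 FPKM in A549/DDP. The genes around SLC38A2 were looked at as for SLC7A7, in a window chosen after values were seen. Around SLC38A2, 5 other gene sums within 250 kb were tested, SLC38A1 among them, and 0 were called by limma. Of these, 3 had an unadjusted p under 0.05 (27.1% of all gene sums did). The same 3 had separate lines, all lower in A549/DDP, as in 10.4% of all gene sums. The log2 fold changes of the 5 ran from -1.21 (SLC38A4-AS1) to 0.32.

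In SLC1, SLC1A3, a carrier of glutamate and aspartate, was lower in all A549/DDP libraries. Its gene sum was 0.946, 4.26 and 1.07 FPKM in A549 and 0, 0 and 0.266 FPKM in A549/DDP. Its log2 fold change of -1.36 (SE 0.37) was not called (adjusted p 0.0565 by limma). SLC1A3 entered the test only through the A549 libraries, in which it was high. Without the filter its adjusted p was 0.132 by limma. None of its transcripts could be tested alone. SLC1A3-205 and SLC1A3-211, which have the spans of coding transcripts, were at most 0.322 FPKM in any library, and the largest parts of the sum came from the retained intron SLC1A3-208 and from an unnamed transcript.

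SLC1A4, a carrier of alanine, serine and cysteine, varied within each line, at 1.10, 2.82 and 5.19 FPKM in A549 and 3.07, 0.999 and 3.48 FPKM in A549/DDP. The lines overlapped (log2 fold change -0.15, SE 0.45).

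In SLC6, SLC6A9, a glycine carrier, was at 1.27, 1.56 and 0.925 FPKM in A549 and 0.275, 0.498 and 0.153 FPKM in A549/DDP. The lines did not overlap, and the log2 fold change of -0.78 (SE 0.20) was not called (adjusted p 0.0499 by limma). SLC6A9 too entered the test only through the A549 libraries, and without the filter its adjusted p was 0.103 by limma. SLC6A6, the taurine carrier, had overlapping sums of 0.950, 1.58 and 6.85 FPKM in A549 and 8.14, 3.65 and 3.35 FPKM in A549/DDP (log2 fold change 0.74, SE 0.53). This value was 0.34 without A549 replicate 1, 0.40 without A549/DDP replicate 1 and 1.34 without A549 replicate 3, and none of these was a call.

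Within SLC6A6, the short transcript SLC6A6-211 separated the lines, at 0.737, 0.687 and 0.510 FPKM in A549 and 1.83, 1.71 and 1.97 FPKM in A549/DDP. Its log2 fold change of 0.79 (SE 0.20) was not called (adjusted p 0.0777 by limma). SLC6A6-205 also separated the lines (log2 fold change 0.59, not called). Of the 17 listed SLC6 members, 15 were too low to be tested.

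Members of SLC36 and SLC43 were low and overlapped between the lines. SLC36A4, a carrier of proline and tryptophan, had sums of 0.985, 2.76 and 1.16 FPKM in A549 and 1.57, 1.86 and 1.79 FPKM in A549/DDP, with a log2 fold change of 0.12 (SE 0.29). SLC43A2, a carrier of branched-chain amino acids, was at 1.56, 1.52 and 0.549 FPKM in A549 and 1.14, 0.987 and 0.802 FPKM in A549/DDP, with a log2 fold change of -0.13 (SE 0.26). Its relative SLC43A1 had 0.37 (SE 0.22).

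Of the 32 listed genes that were not tested, 23 had no value above 0 in any library, and the other 9 had a value in at least 1 library. Since SLC3A2 alone held 67.7% to 70.9% of the summed FPKM of all members in A549, and 60.3%, 9.25% and 12.9% in the A549/DDP libraries, the total over all members follows it. That total was 299, 334 and 271 FPKM in A549 and 232, 114.9 and 91.1 FPKM in A549/DDP. Without SLC3A2 the sums overlapped, at 87.0, 108 and 83.1 FPKM in A549 and 92.2, 104 and 79.3 FPKM in A549/DDP, where the higher SLC7A7 and the lower SLC38A2 entered with opposite signs.

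Genes that work with these carriers were described by lists, whose counts stand against 27.1% of all gene sums at an unadjusted p under 0.05, calls of 1.39% higher and 0.963% lower, and a median log2 fold change of 0.17. Among other carriers of amino acids and peptides, 8 of the 21 listed by name were tested, with 0 called in either direction by limma, 2 at an unadjusted p under 0.05 and a median log2 fold change of 0.35. SLC25A12, the mitochondrial aspartate and glutamate carrier, was at a mean of 1.66 FPKM in A549 and 4.04 FPKM in A549/DDP (log2 fold change 0.92, adjusted p 0.0614 by limma).

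Of 34 genes that pass the amino acid signal to mTORC1, 26 were tested, with 0 called by limma, 1 at an unadjusted p under 0.05 and a median of 0.03. SESN1, a sestrin, whose family includes a leucine sensor, was at 0.348, 1.21 and 1.62 FPKM in A549 and 3.37, 4.17 and 4.23 FPKM in A549/DDP, with separate lines (log2 fold change 1.31, adjusted p 0.0316 by limma).

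Of 9 genes of cysteine and glutathione metabolism, 6 were tested, with 0 called by limma, 2 at an unadjusted p under 0.05 and a median of 0.53. GCLM, the modifier subunit of the enzyme that begins glutathione synthesis, was at 0.330, 2.18 and 0.928 FPKM in A549 and 7.94, 6.04 and 10.5 FPKM in A549/DDP. The lines were separate, and the log2 fold change of 2.16 (SE 0.36) narrowly missed the call (adjusted p 0.0103 by limma). CBS, which makes cystathionine from homocysteine, had a log2 fold change of -0.75 (adjusted p 0.0965 by limma).

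Of 9 genes of glutamine and asparagine use, 7 were tested, with 0 called by limma, 1 at an unadjusted p under 0.05 and a median of -0.06. GOT1, the cytosolic aspartate aminotransferase, was at 11.8, 7.66 and 7.90 FPKM in A549 and 4.03, 4.56 and 3.72 FPKM in A549/DDP. These lines did not overlap, and its log2 fold change of -0.97 was not called (adjusted p 0.0479 by limma).

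Of the cell type markers, only KRT8 was called. Of 5 epithelial genes, 4 were tested, and KRT8 was higher, at 535, 268 and 455 FPKM in A549 and 1731, 2043 and 1491 FPKM in A549/DDP (log2 fold change 2.11, adjusted p 0.00423 by limma). Of the others, CDH1 (log2 fold change 2.06) and KRT18 (0.76) had separate lines and were not called, EPCAM was at -0.28 with overlapping lines, and KRT19 was too low to be tested. The summed level of this list was 477 to 678 FPKM in A549 and 1798 to 2391 FPKM in A549/DDP, most of it from KRT8 and KRT18. ALB, a hepatocyte gene, was at 0 in all libraries.

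Fibroblast genes (4 in the list, 0 tested) summed to 0.227 to 0.464 FPKM in A549 and 0.365 to 0.851 FPKM in A549/DDP. Of 4 leukocyte genes, 3 had rows and 0 were tested. Their sum reached at most 0.112 FPKM in A549 and was 0 in A549/DDP, with PTPRC, which marks white blood cells, at 0 in all libraries. Whether the difference in KRT8 has a part in that of SLC7A7 was not tested.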

How the data were processed

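The deposited values are FPKM per transcript, which the authors computed in 6 libraries. The paper names Trimmomatic, HISAT2 (hg38) and the Cufflinks tools, whereas the submitters' processing notes name CASAVA, HISAT2, StringTie and DESeq2, without versions. Which of them made the values is not stated. Depth is unknown, because whole reads could not be recovered. For values under 0.5 FPKM, the fullest bin (width 0.02 on the log2 scale) of ratios against A549 replicate 1 held at most 1.23% of the pairs, so no count test was run.

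Transcripts were named by gene ID and span from GENCODE 44 (28511 of 29050 Ensembl gene IDs matched). FPKM were summed per gene ID, put on the log2(FPKM + 1) scale and tested with limma 3.58.1 under R 4.3.3 (variance modelled by level), for features that reached 0.5 FPKM in 3 or more libraries. P values were two-sided and adjusted by Benjamini-Hochberg over all features. The code was tested on simulated data. An exact permutation test of 3 against 3 libraries cannot go below p = 0.1. Sequences, sums and figures used Python 3.11.15, pandas 2.3.3, numpy 2.4.6 and matplotlib 3.10.9.

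Members, gene lists and markers were chosen with earlier results of these data known. By the rule for named genes, full values are given for SLC7A7, called members, heavy chains and their light chains, the highest member of each family and members with separate lines. This rule covers 18 genes, of which SLC7A11 and SLC3A1 are not analysed here. The other tested members are given so that each is accounted for, and the genes named from each list were chosen after their values were seen. Alternatives were other pseudocounts, filters and scalings, a threshold of 0.05, a replicate block and leaving out each library. Some genes of the lists are not reported here.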

Additional observations from a re-analysis of the deposited data

How the results depend on the processing

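Counts of called members moved by 1 at most. Among transcripts, the count called higher was 1 and became 0 without a filter, with the replicate block and without each library in turn (0 to 0), as SLC7A7-209 lost its call there (adjusted p 0.0292 without a filter and 0.0337 with the block, by limma). The count called lower was 0 and became 1 with a filter of 2 FPKM and with an adjusted p under 0.05 (SLC38A2-203 in both), and was 0 to 1 without each library in turn. At the filter of 2 FPKM, SLC38A2-203 entered the test only through the A549 libraries, in which it was high. Among gene sums, the count called higher became 0 with a pseudocount of 0.01 (SLC7A7 log2 fold change 6.34, adjusted p 0.0121 by limma) and 0 without a filter (adjusted p 0.0115 by limma). The count called lower became 1 with median-ratio scaling and 1 with an adjusted p under 0.05 (SLC38A2 in both), was 0 to 1 without each library in turn, and was 1 without A549/DDP replicate 1 (SLC3A2). Deviations of libraries with the same number had correlations of -0.033 to 0.015, which cannot show whether those libraries were handled together. With the block the SLC7A7 sum stayed called. Median-ratio scaling took the median of all gene sums from 0.17 to 0.02.

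The directions that reversed belonged to gene sums and transcripts that were not called. With the main settings, their log2 fold changes ran from -0.33 (SLC38A6-217) to 0.23 (SLC7A5). SLC1A4-203 was at -0.16 with median-ratio scaling and -0.060 with quantile normalization, and the SLC36A4 sum was at -0.028 and -0.029 with these. Without each library in turn, log2 fold changes ran from -0.37 to 0.47 for SLC1A4-203, from -0.55 to 0.23 for the SLC1A4 sum, from -0.058 to 0.40 for SLC36A4, from -0.034 to 0.38 for SLC7A5 and for SLC7A5-202, from -0.28 to 0.19 for SLC7A6, from -0.32 to 0.012 for SLC7A6-207 and from -0.57 to 0.052 for SLC38A6-217. The cause of these changes was not tested. With 3 libraries a line, an unknown depth and mostly low values, a p that misses the threshold does not show that the lines are alike.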
